A study of Mus musculus with 12 samples.

Results

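Hedgehog signalling was followed through 9 genes of the 18903 in the count table: the ligand *Shh*, the receptor *Ptch1*, the signal transducer *Smo*, the co-receptors *Gas1* and *Boc*, the transcription factors *Gli1*, *Gli2* and *Gli3*, and the inhibitor *Hhip*. They were chosen by name as the core of the pathway, with earlier results of these data known. All 9 were among the 17938 genes that passed the filter on low counts. The RNA came from primary astrocytes grown from brains taken at postnatal day 1 (P1), 6 (P6) or 8 (P8), with 2 libraries for each of 6 groups. At each time point hGFAP-cre::*Rack7* +/+ animals (WT) were compared with hGFAP-cre::*Rack7* fl/fl animals (*Rack7*-cKO), so the Cre transgene was carried by both. The line was made in C57BL/6 zygotes, animals of both sexes were used, and Cre under the human GFAP promoter acts from embryonic neural stem cells onwards, with RACK7 lost mainly from cortex and hippocampus. The meninges were stripped off, the cultures were shaken to remove microglia and oligodendrocytes, and the remaining cells were grown to confluence. Whether the 2 libraries of a group came from separate cultures or animals is not stated beyond their being biological repeats, and p-values measure the spread between these libraries.

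In the hedgehog pathway, SHH is released by a source cell and binds the membrane protein PTCH1 on a receiving cell. Free PTCH1 keeps SMO inactive, and ligand binding lifts that block at the primary cilium, so that GLI2 and GLI3 are no longer cut to repressors and act as activators. *Gli1*, *Ptch1* and *Hhip* are direct target genes of this step, and their levels are commonly read as the output of the pathway. PTCH1 and HHIP bind the ligand and limit its reach, whereas GAS1, BOC and the related CDON help it to bind PTCH1. In the brain the pathway patterns the ventral neural tube, drives the growth of cerebellar granule precursors and is active in subsets of mature astrocytes.

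Levels are given as CPM, counts scaled to the TMM-normalized library size in edgeR, and differences as log2 fold changes from edgeR's quasi-likelihood test, adjusted by Benjamini-Hochberg over all 17938 genes. A gene was called at an adjusted p below 0.05 together with a fold change of at least 1.5. Library totals ran from 54413504 to 89183250 counts. *Zmynd8*, the gene of RACK7, stood at 99.98 to 136 CPM in the libraries labelled WT and at 160.4 to 242 CPM in those labelled cKO, higher under the cKO label at all 3 time points. In edgeR it was called higher in cKO, 1.57-fold at P1, 2.05-fold at P6 and 1.62-fold at P8 (adjusted p = 3.16e-05, 4.97e-07 and 3.78e-06). The cause was not tested. Reads of the excised exons were not counted apart, so the whole-gene count does not show whether they were present. WT and cKO below mean the labels of the libraries. Of 15 astrocyte markers 14 were measured, none of them was at 0 in any group, and their summed level was 1089 to 2757 CPM. The sum of 13 microglia markers was above the astrocyte sum in every group, at 3817 to 7546 CPM. The sum of 14 fibroblast markers was below the astrocyte sum at P1 and above it at P6 and P8, up to 27075 CPM in P8 WT. Sums over different genes are not shares of cells.

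*Shh* encodes the secreted ligand (ENSMUSG00000002633, chromosome 5, 28456815 to 28467256 on the minus strand of GRCm38, in 3 exon blocks). At P1 it stood at 104 and 94.9 CPM in the WT libraries and at 44.1 and 42.8 CPM in the cKO libraries. At P6 the values were 61.5 and 62.8 CPM in WT against 166 and 165 CPM in cKO. At P8 they were 7.11 and 9.93 CPM in WT against 76.6 and 73.9 CPM in cKO. The groups did not overlap at any time point, and the side on which cKO lay was not the same: lower at P1, higher at P6 and P8. In edgeR the P1 log2 fold change came to -1.19 (SE 0.123, adjusted p = 3.24e-04), that of P6 to 1.41 (SE 0.123, adjusted p = 3.63e-05) and that of P8 to 3.14 (SE 0.133, adjusted p = 1.96e-07). That is a fall of 2.29-fold at P1 and rises of 2.67-fold and 8.81-fold at P6 and P8. *Shh* is a gene that the study itself names as raised on loss of RACK7 in these libraries. Its rises at P6 and P8 are therefore not independent evidence, and its fall at P1 lay on the other side. From P1 to P8 the difference between the labels changed by 4.33 on the log2 scale (SE 0.181, adjusted p = 2.90e-07), and both steps contributed, with 2.61 from P1 to P6 and 1.73 from P6 to P8.

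Over time *Shh* fell in WT, by 0.68 on the log2 scale from P1 to P6 (adjusted p = 0.00183) and it fell by 2.86 from P6 to P8 (adjusted p = 3.91e-07), so that the last WT group was the lowest of the 6. In cKO it rose by 1.93 from P1 to P6 (adjusted p = 3.25e-06) and then fell by 1.14 from P6 to P8 (adjusted p = 6.55e-05, all from edgeR). From highest to lowest the groups ran P6 cKO, P1 WT, P8 cKO, P6 WT, P1 cKO and P8 WT, and the libraries of each neighbouring pair in that order stood apart. Per kilobase of exon, *Shh* was the highest of the 9 genes in P1 WT (34.9 ± 2.23 CPM per kb, SD, n = 2), P6 WT (21.8 ± 0.321), P6 cKO (58.2 ± 0.211) and P8 cKO (26.4 ± 0.671), and the lowest in P8 WT (2.99 ± 0.700). On that scale it lay above 95.9% of 17912 genes with a known length in P6 cKO and above 43.2% in P8 WT.

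**Figure D1:**
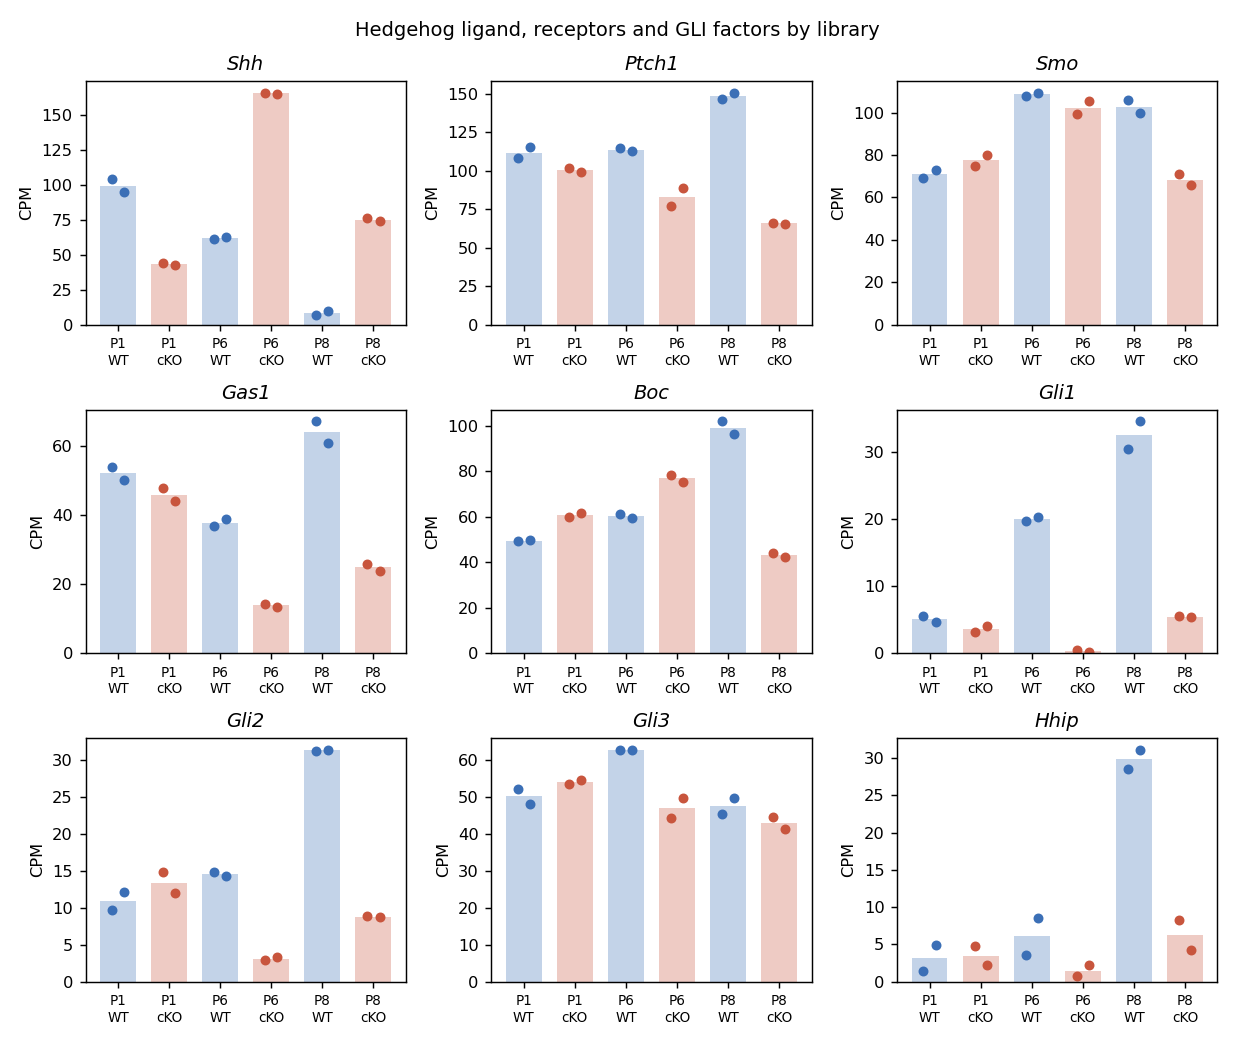
CPM of each of the 9 genes in the 6 groups, with a point for each library and a bar for the mean of 2 (blue for WT, red for cKO, linear axes from 0). *Shh* peaks in P6 cKO at 166 and 165 CPM, where *Gli1* is lowest at 0.457 and 0.187 CPM, and *Gli3* stays between 41.4 and 62.8 CPM throughout.

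*Gli1* encodes a GLI activator whose transcription depends on the pathway (ENSMUSG00000025407, chromosome 10, 127329882 to 127341974, minus strand). At P1 it was low under both labels, with 5.48 and 4.63 CPM in WT and 3.23 and 4.04 CPM in cKO. At P6 it stood at 19.8 and 20.3 CPM in WT (1254 and 1389 counts) and at 0.457 and 0.187 CPM in cKO (30 and 12 counts). At P8 it stood at 30.4 and 34.6 CPM in WT and at 5.59 and 5.34 CPM in cKO. The libraries of the labels were thus apart at each time point, with cKO on the lower side. In edgeR the log2 fold change of -0.48 for P1 had a 95% interval of -0.998 to 0.05 (adjusted p = 0.280), and those of the later days were -5.95 (P6, SE 0.299, adjusted p = 1.01e-06) and -2.57 (P8, SE 0.233, adjusted p = 2.75e-05), so that *Gli1* fell at P6 and P8 and did not pass the test at P1. The fold at P6 was 61.7, the largest among the 9 genes in any comparison of the labels, and it came to 106 without P6 cKO replicate 1. *Gli1* overlaps *Arhgap9* and *Gm47200* in the annotation, and with the strand setting of the counting not given in the sources used here, reads of the shared stretch could be on either gene. *Arhgap9* ran from 13.1 to 27.1 CPM over all 12 libraries and from 13.1 to 15.8 CPM in P6 cKO.

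The difference between the labels in *Gli1* grew from P1 to P6 by -5.47 on the log2 scale (SE 0.373, adjusted p = 1.18e-05) and shrank again from P6 to P8, by 3.38 (SE 0.364, adjusted p = 1.83e-04). In WT *Gli1* rose from P1 to P6 by 1.99 (adjusted p = 1.16e-04) and from P6 to P8 by 0.70 (adjusted p = 0.0350), the second of these calls being lost without any of the 4 WT libraries of P6 and P8, with adjusted p = 0.0724 to 0.167 in edgeR, and without either P8 cKO library, at 0.0523 and 0.0527. In cKO it fell by 3.49 from P1 to P6 (adjusted p = 1.70e-05) and rose by 4.07 from P6 to P8 (adjusted p = 4.21e-06). Without P6 cKO replicate 1 those steps were -4.27 and 4.86, and the changes of the difference -6.26 and 4.16. The P8 cKO libraries, at 5.34 and 5.59 CPM, came back to the range of P1 WT, at 4.63 and 5.48 CPM, and these groups overlapped.

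*Ptch1* encodes the receptor and is itself a target (ENSMUSG00000021466, chromosome 13, 63508328 to 63573598, minus strand). Its values in WT were 108 and 116 CPM at P1, then 115 and 113 CPM (P6), then 147 and 151 CPM (P8). In cKO they were 102 and 99.2 CPM, then 76.9 and 88.9 CPM, then 66.1 and 65.8 CPM. The cKO libraries were below the WT libraries at each time point, and the gap widened. By edgeR the log2 fold changes were -0.15 (P1, adjusted p = 0.236), -0.46 (P6, adjusted p = 0.00104, at 1.37-fold under the fold set for a call) and -1.17 (P8, SE 0.0694, adjusted p = 1.76e-06). *Ptch1* therefore fell at P8 alone by the rule used, and the widening from P6 to P8, of -0.72, passed its own test (adjusted p = 7.48e-04). The change from P1 to P6, of -0.30, did not pass in edgeR (adjusted p = 0.0698).

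*Hhip* encodes a membrane-bound decoy of the ligand (ENSMUSG00000064325, chromosome 8, 79965851 to 80058006, minus strand). At P1 it stood at 1.46 and 4.96 CPM in WT and at 4.76 and 2.25 CPM in cKO, and the groups overlapped. At P6 it was 3.63 and 8.53 CPM in WT and 0.777 and 2.18 CPM in cKO, and at P8 28.5 and 31.1 CPM in WT and 8.24 and 4.29 CPM in cKO. Replicates differed by up to a factor of 3.40 within a group, the widest spread of the 9 genes. In edgeR the log2 fold changes and their 95% intervals were 0.11 for P1 (-1.43 to 1.66, adjusted p = 0.962), -2.04 for P6 (-3.66 to -0.42, adjusted p = 0.0669) and -2.25 for P8 (-3.79 to -0.72, adjusted p = 0.0296). *Hhip* fell at P8, and that call was lost without any of the 4 libraries of P8, with adjusted p = 0.0602 to 0.167. The changes of the difference between time points did not pass the test for *Hhip*, with intervals more than 4 log2 units wide.

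**Figure D2:**
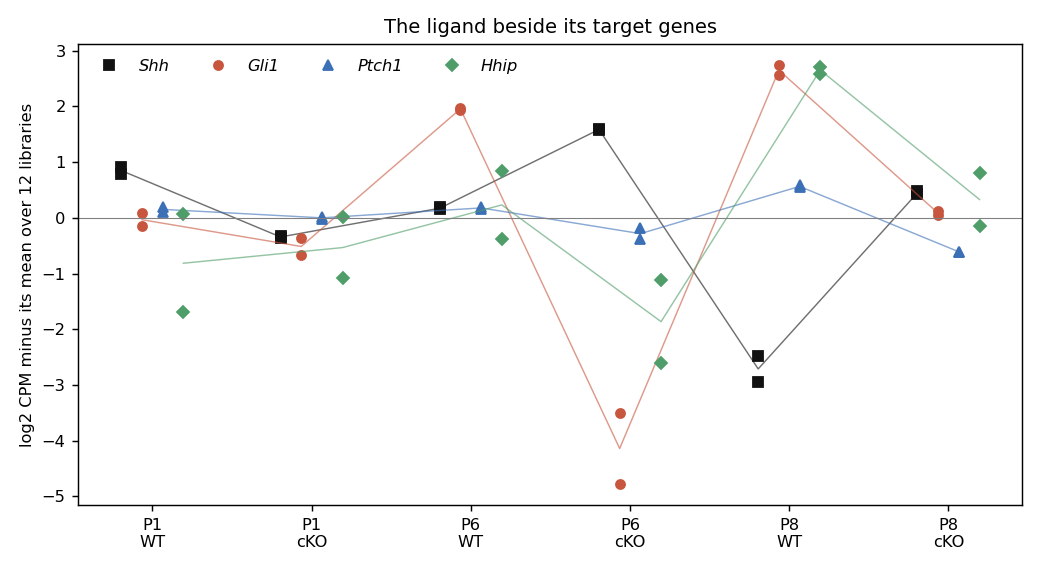
log2 CPM of *Shh* (black squares), *Gli1* (red circles), *Ptch1* (blue triangles) and *Hhip* (green diamonds) minus the gene's mean over the 12 libraries, with a point for each library and a line through the group means, for groups in order of time and label. In P6 cKO *Shh* is at its highest and *Gli1* and *Hhip* at their lowest, and in P8 WT *Shh* is at its lowest and all 3 target genes at their highest.

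Set side by side, the ligand was above WT and the 3 targets were below WT in the cKO libraries of P6 and P8. The group with the most *Shh*, P6 cKO at 166 ± 0.600 CPM (SD, n = 2), had the least *Gli1* (0.322 ± 0.191 CPM) and the least *Hhip* (1.48 ± 0.991 CPM), while *Ptch1* was lowest in P8 cKO (65.9 ± 0.221 CPM). The group with the least *Shh*, P8 WT at 8.52 ± 1.99 CPM, had the most *Gli1* (32.5 ± 2.99 CPM), *Ptch1* (149 ± 2.82 CPM) and *Hhip* (29.8 ± 1.85 CPM). At P1, where *Shh* was 2.29-fold lower in cKO, none of the 3 targets was called, and *Gli1* and *Ptch1* were 1.39-fold and 1.11-fold lower. Within WT, *Shh* fell at both steps in time while *Gli1* rose at both. *Ptch1* differed little from P1 to P6 in WT (log2 fold change 0.025, adjusted p = 0.809), and from P6 to P8 its 0.39 was under the fold set for a call (adjusted p = 0.00208). *Hhip* did not pass the test from P1 to P6 in WT (0.91, adjusted p = 0.327) and rose from P6 to P8 by 2.29 (adjusted p = 0.0275, and 0.148 without P6 WT replicate 1 or 0.0691 and 0.0870 without either P8 WT library). Without P6 WT replicate 2 the rise was 3.04. Within cKO, *Shh* rose and *Gli1* fell from P1 to P6, and *Shh* fell while *Gli1* and *Hhip* rose from P6 to P8, *Hhip* by 2.08 (adjusted p = 0.0449). The call for *Hhip* was lost without P6 cKO replicate 1 (0.222), P8 cKO replicate 1 (0.208) or either P8 WT library (0.0638 and 0.0639), and without P6 cKO replicate 2 the value was 3.01. *Ptch1* in cKO was lower at both steps, with log2 fold changes of -0.28 (adjusted p = 0.0104) and -0.33 (adjusted p = 0.00413) under the fold set for a call, so from P6 to P8 it lay on the side of *Shh* and not on that of *Gli1* and *Hhip*. These comparisons share libraries, and with bulk RNA fewer cells of a type and less RNA per cell cannot be told apart.

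To show the stretch around the starts of members that fell together at P8, the RefSeq windows (GRCm38.p6, 250 bases before to 50 after the start, 300 in all, read 5′ to 3′ on the gene's strand) are printed for the receptor, the decoy and *Gli2*. The *Ptch1* window is at a RefSeq start inside the gene's span given above, whose upstream end is at 63573598. CG dinucleotides are in capitals.
*Ptch1*, chr13:63565686-63565985, minus strand: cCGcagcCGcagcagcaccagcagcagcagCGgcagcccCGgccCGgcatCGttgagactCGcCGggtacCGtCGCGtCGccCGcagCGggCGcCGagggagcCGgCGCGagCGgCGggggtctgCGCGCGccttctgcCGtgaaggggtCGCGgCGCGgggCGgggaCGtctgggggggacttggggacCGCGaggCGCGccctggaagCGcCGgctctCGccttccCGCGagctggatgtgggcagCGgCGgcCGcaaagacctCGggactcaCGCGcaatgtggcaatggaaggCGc
*Hhip*, chr8:80057959-80058258, minus strand: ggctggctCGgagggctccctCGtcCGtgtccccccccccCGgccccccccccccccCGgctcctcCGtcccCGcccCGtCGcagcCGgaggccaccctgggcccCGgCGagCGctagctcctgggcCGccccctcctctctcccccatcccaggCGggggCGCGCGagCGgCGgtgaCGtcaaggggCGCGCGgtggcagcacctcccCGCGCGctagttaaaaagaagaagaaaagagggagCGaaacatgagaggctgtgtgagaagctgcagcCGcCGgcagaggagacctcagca
*Gli2*, chr1:119053570-119053869, minus strand: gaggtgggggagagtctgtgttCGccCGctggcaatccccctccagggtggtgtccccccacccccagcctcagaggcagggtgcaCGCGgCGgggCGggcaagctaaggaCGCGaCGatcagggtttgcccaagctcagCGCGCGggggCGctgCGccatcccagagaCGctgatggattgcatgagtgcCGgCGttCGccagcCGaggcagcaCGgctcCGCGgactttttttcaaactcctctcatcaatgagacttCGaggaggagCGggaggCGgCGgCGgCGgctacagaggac
These windows hold 47, 30 and 28 CG dinucleotides, against a median of 7 over 32851 windows of the same length, and they lie above 98.6%, 88.3% and 85.8% of them. Windows were matched for 6 of the 9 genes. Of the other three, *Smo* and *Gas1*, which also fell at P8, hold 17 each (above 68.6% of windows), and *Gli3*, which was not called there, holds 39 (above 95.6%). The GLI consensus GACCACCCA, searched on both strands, was in none of the 6, and it was in 0.253% of all windows. With any base at the second position (GNCCACCCA, which includes the consensus) it was again in none of the 6, against 1.53% of all windows. At shares this low, none in 6 windows was the likely outcome, so the search cannot tell whether these genes hold GLI sites. Bases outside the windows, such as the upstream end of *Ptch1*, were not searched, and *Gli1* had no window.

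*Gli2* and *Gli3* encode the factors that are cut or activated at the cilium, GLI2 acting mainly as an activator and GLI3 mainly as a repressor. *Gli2* (ENSMUSG00000048402, chromosome 1, 118834132 to 119053619, minus strand) was 9.74 and 12.1 CPM in WT and 14.9 and 11.95 CPM in cKO at P1, where the groups overlapped. The P6 libraries held 14.9 and 14.3 CPM in WT and 2.94 and 3.30 CPM in cKO, and the P8 libraries 31.3 and 31.4 CPM and 8.93 and 8.73 CPM. *Gli2* fell in cKO at both later time points, 4.68-fold at P6 and 3.55-fold at P8, with log2 fold changes of -2.23 (SE 0.143, adjusted p = 4.91e-06) and -1.83 (SE 0.138, adjusted p = 8.17e-06) in edgeR, and not at P1 (0.30, adjusted p = 0.246). The difference changed from P1 to P6 by -2.52 (adjusted p = 2.81e-05), and from P6 to P8 the change of 0.40 did not pass the test (95% interval -0.04 to 0.83, adjusted p = 0.189).

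*Gli3* (ENSMUSG00000021318, chromosome 13, 15463235 to 15730026, plus strand) had the narrowest range of the 9, from 41.4 to 62.8 CPM over the 12 libraries. In P6 WT it was 62.6 and 62.8 CPM, against 44.1 and 49.7 CPM in P6 cKO, a log2 fold change of -0.42 (SE 0.0802, adjusted p = 0.00434 in edgeR) that at 1.34-fold was under the fold set for a call. It was 0.10 at P1 (adjusted p = 0.523) and -0.15 for P8 (adjusted p = 0.196). Among the GLI genes *Gli3* was the highest per kilobase in every group but P8 WT, where *Gli1* came to 6.50 ± 0.599 and *Gli3* to 4.96 ± 0.313 CPM per kb. In P6 cKO the 3 stood at 4.89 ± 0.409 for *Gli3*, 0.454 ± 0.0370 for *Gli2* and 0.0644 ± 0.0382 for *Gli1* (CPM per kb, SD, n = 2), so that *Gli1* lay above 2.76% of the 17912 genes.

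*Smo* (ENSMUSG00000001761, chromosome 6, 29735503 to 29761365, plus strand), which relays the signal into the cell, did not pass the test between the labels at P1 and P6. The values were 69.3 and 73.0 CPM in WT against 75.0 and 79.8 CPM in cKO at P1, and 108 and 109 against 99.2 and 105 at P6. The log2 fold changes there were 0.12 (95% interval -0.02 to 0.27, adjusted p = 0.323) and -0.09 (-0.23 to 0.06, adjusted p = 0.375). At P8 the values were 106 and 99.6 CPM in WT against 70.9 and 65.6 CPM in cKO, and the groups were apart by more than their spread. *Smo* fell at P8 by 0.59 on the log2 scale (SE 0.0639, adjusted p = 8.98e-05 in edgeR). At 1.505-fold it is just past the fold set for a call, and without 1 WT or 1 cKO library of P8 it came to -0.54 or -0.53 and was under it. In WT *Smo* rose from P1 to P6 by 0.61 (adjusted p = 6.01e-05), 1.53-fold, which fell to 0.57 and under the fold without the first P1 WT library.

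*Gas1* (ENSMUSG00000052957, chromosome 13, 60174405 to 60177365, minus strand, a gene of 1 exon) encodes a membrane-anchored co-receptor. In WT it stood at 53.8 and 50.3 CPM (P1), 36.8 and 38.7 CPM (P6), and 67.2 and 60.8 CPM (P8). In cKO it stood at 47.7 and 43.9 CPM, 14.3 and 13.3 CPM, and 26.0 and 23.7 CPM. The cKO libraries were lower at every time point, and the fold was close to the same at P6 and P8. *Gas1* fell 2.73-fold at P6 and 2.58-fold at P8 (log2 fold changes -1.45 and -1.37, adjusted p = 2.99e-06 and 2.57e-06 in edgeR), and at P1 its -0.18 did not pass the test (adjusted p = 0.254). The difference changed from P1 to P6 by -1.27 (adjusted p = 1.10e-04) and from P6 to P8 by 0.08 (95% interval -0.19 to 0.36, adjusted p = 0.690).

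*Boc* (ENSMUSG00000022687, chromosome 16, 44485049 to 44558897, minus strand), a co-receptor of the immunoglobulin superfamily, was the member whose difference turned between P6 and P8. It was 49.2 and 49.9 CPM in WT against 60.0 and 61.7 CPM in cKO at P1, and 61.4 and 59.4 against 78.5 and 75.3 at P6. At P8 it was 102 and 96.3 CPM in WT against 44.1 and 42.3 CPM in cKO. The cKO libraries were thus the higher ones at P1 and P6 and the lower ones at P8. The log2 fold changes of 0.30 at P1 (adjusted p = 0.0111) and 0.35 at P6 (adjusted p = 0.00166) were under the fold set for a call, and the fall of 1.20 at P8 was past it (SE 0.0573, adjusted p = 4.22e-07 in edgeR). From P6 to P8 the difference changed by -1.55 (SE 0.0804, adjusted p = 2.17e-06). Over that step *Boc* rose in WT by 0.72 (adjusted p = 1.28e-05) and fell in cKO by 0.83 (adjusted p = 3.18e-06).

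**Figure D3:**
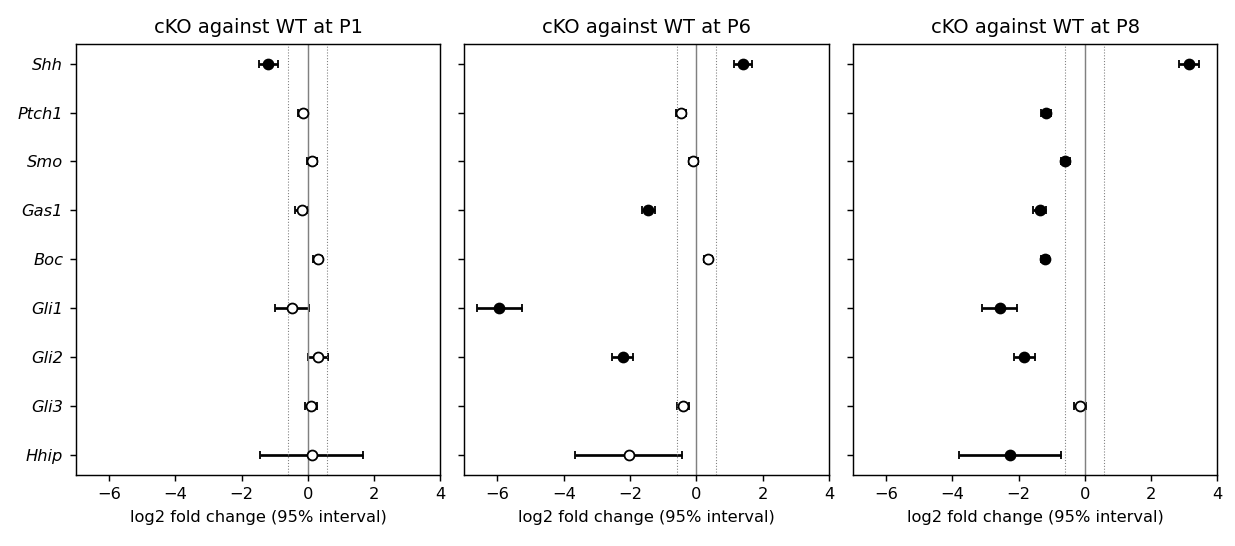
log2 fold change of cKO against WT with its 95% interval from edgeR for each of the 9 genes at P1, P6 and P8. Filled points passed the adjusted p and the fold change of 1.5 (dotted lines). *Shh* lies at -1.19, 1.41 and 3.14, and at P8 all of the other 8 genes lie below 0, with *Gli3* at -0.15 the open point.

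Over all 9 genes, 1 was called at P1 (0 higher, 1 lower), against 4.9% of all genes tested (4.01% higher, 0.892% lower). At P6, 4 were called (1 higher, 3 lower), against 13.5% of all genes tested (7.16% higher, 6.38% lower). At P8, 8 were called (1 higher, 7 lower), against 19.6% of all genes (11.2% higher, 8.37% lower). For P1, P6 and P8 in turn, the median log2 fold change of the 9 came to 0.10, -0.46 and -1.20, and that of all genes tested to 0, 0 and 0.01. Over time, 3 of 9 were called from P1 to P6 in WT, against 23.1% of all genes, and 4 of 9 in cKO, against 21.4%. From P6 to P8, 6 of 9 were called in WT, against 18.9%, and 6 of 9 in cKO, against 24%. The difference between the labels changed for 5 genes from P1 to P6 (*Shh*, *Gli1*, *Gli2*, *Gli3* and *Gas1*), against 15.3% of all genes by the adjusted p alone, and *Gli3* was lost from these without P1 WT replicate 2 (adjusted p = 0.0521 in edgeR). It changed for 5 genes from P6 to P8 (*Shh*, *Smo*, *Ptch1*, *Boc* and *Gli1*), against 21.5%, and for 7 from P1 to P8 (*Shh*, *Smo*, *Ptch1*, *Boc*, *Gli1*, *Gli2* and *Gas1*), against 25.7%.

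Other ligands were represented by *Dhh*, the desert hedgehog ligand known from peripheral nerve and testis. *Ihh* was not in the count table. *Dhh* stood at 0.489 and 1.49 CPM in P6 WT and at 13.9 and 14.9 CPM in P6 cKO, and at 0.774 and 0.956 CPM in P8 WT and 3.90 and 3.90 CPM in P8 cKO. It rose 14.5-fold at P6 (log2 fold change 3.85, adjusted p = 2.42e-04 in edgeR) and 4.49-fold at P8 (adjusted p = 0.00398), on the same side as *Shh*. Without P6 WT replicate 2 the fold of *Dhh* at P6 was 29.2. At P1, where *Shh* was lower in cKO, its 1.47 did not pass the test (adjusted p = 0.0807).

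Of the 5 genes measured that process and release the ligand, 2 rose at P1, 1 rose and 2 fell at P6, and 1 fell at P8. The shares called over all genes tested were 4.9%, 13.5% and 19.6%. *Hhat*, which attaches the palmitate of the ligand, rose at P1, 2.40-fold from 1.47 to 3.53 CPM (adjusted p = 0.0101 in edgeR), a call lost without P1 WT replicate 1 (0.0718) or P1 cKO replicate 2 (0.0504). *Disp1*, the transporter that frees the lipid-bound ligand from its source cell, fell at P6 and P8. The P6 libraries held 36.0 and 47.0 CPM in WT and 21.1 and 22.3 CPM in cKO, and the P8 libraries 60.0 and 63.4 CPM and 29.3 and 31.6 CPM, with log2 fold changes of -0.93 and -1.02 (adjusted p = 4.67e-04 and 1.68e-04 in edgeR). The carriers of the SCUBE family went to different sides at P6, where *Scube3* rose 1.60-fold and *Scube1* fell 2.35-fold. The call for *Scube3* was lost without P6 WT replicate 1, at 1.498-fold, and that for *Scube1* without P6 WT replicate 1, P6 WT replicate 2 or P6 cKO replicate 1 (adjusted p = 0.0553, 0.106 and 0.143 in edgeR).

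Among the 5 other receptors and co-receptors measured, 1 rose at P1, 1 rose and 2 fell at P6, and 2 rose and 3 fell at P8. Over all genes tested, 4.9%, 13.5% and 19.6% were called at these time points. *Cdon*, the closest relative of *Boc*, went from 150 and 159 CPM in P6 WT to 44.0 and 53.0 CPM in P6 cKO, and from 208 and 221 CPM in P8 WT to 54.9 and 65.1 CPM in P8 cKO. It fell 3.18-fold and 3.58-fold. *Lrp2*, the endocytic receptor megalin, which takes up SHH in the ventral forebrain, rose 5.04-fold at P6, from 176 and 195 CPM to 884 and 985 CPM, and 6.45-fold at P8, from 58.0 and 59.7 CPM to 378 and 381 CPM. The glypican *Gpc3*, which competes with PTCH1 for the ligand, rose 4.32-fold at P1 and fell 10.3-fold at P6 and 9.32-fold at P8. *Gpc6*, a glypican that aids the pathway, fell 6.91-fold at P8, and at P6 its 2.12-fold lower level did not pass the test (adjusted p = 0.0973). All folds named as rises or falls here had an adjusted p below 0.05 in edgeR.

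**Figure D4:**
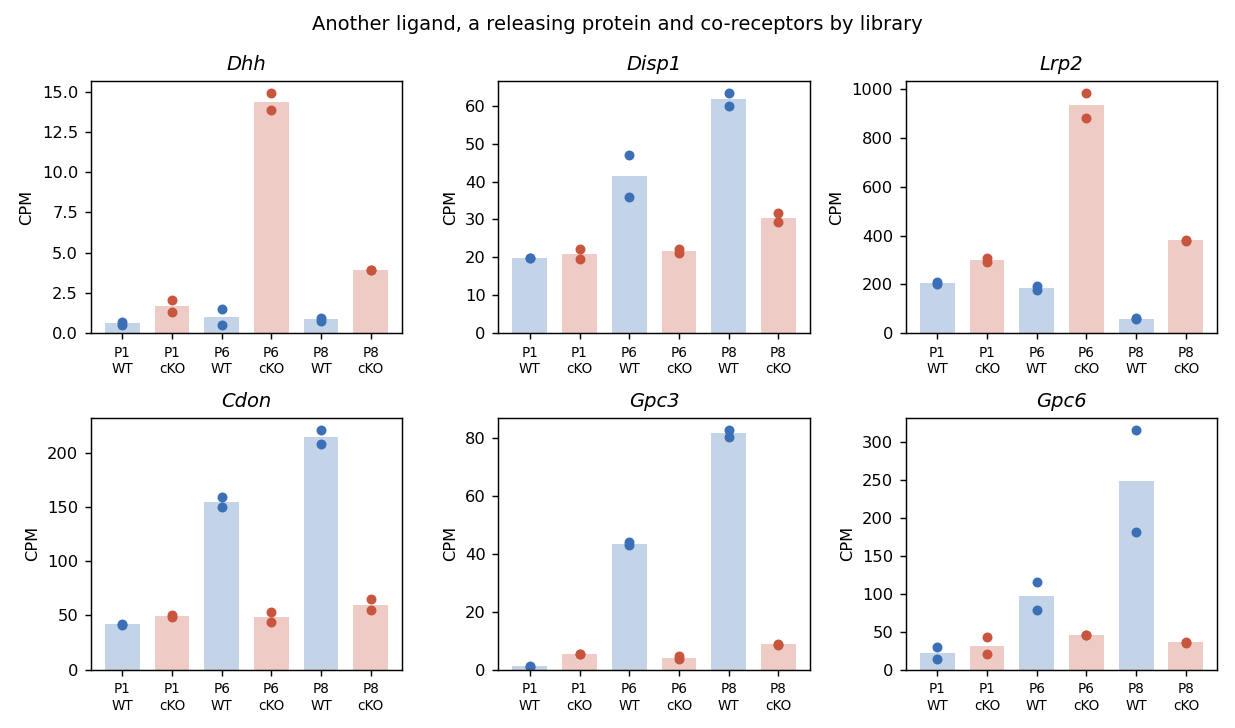
CPM of *Dhh*, *Disp1*, *Lrp2*, *Cdon*, *Gpc3* and *Gpc6* in the 6 groups, with a point for each library and a bar for the mean of 2 (blue for WT, red for cKO, linear axes from 0). *Dhh* and *Lrp2* are highest in P6 cKO, at 14.9 and 985 CPM in the upper library, and *Disp1*, *Cdon*, *Gpc3* and *Gpc6* are highest in P8 WT.

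Of 28 genes of the relay between SMO and GLI, edgeR called 0 at P1 and 0 at P6 (5 and 13 at an unadjusted p below 0.05 alone), and at P8 it called 3 higher and 2 lower. DESeq2 called 0, 0 and 5 of them. For comparison, edgeR called 4.9%, 13.5% and 19.6% of all genes tested at P1, P6 and P8, so the relay's calls at P8 were near that share. The calls at P8 included *Evc* and *Kif7*, ciliary proteins that pass the signal on, which fell 1.77-fold and 1.76-fold. *Prkar2b*, a regulatory subunit of protein kinase A, and *Arrb2*, an arrestin, rose 1.79-fold and 1.67-fold. Of 37 primary cilium genes edgeR called 0 at P1 and 0 at P6 (6 and 10 at an unadjusted p below 0.05 alone) and 1 at P8, *Ttc21b*, which fell 1.64-fold, and DESeq2 called 0, 0 and 4. Of 20 further genes listed as hedgehog targets in one tissue or another, 5 rose and 1 fell at P1, 4 rose and 5 fell at P6, and 8 rose and 1 fell at P8. *Foxa2*, the floor plate factor, rose at all 3 time points, 8.09-fold, 8.39-fold and 10.3-fold, up to 11.03 and 11.4 CPM in P6 cKO. At P1 its WT libraries stood at 0.101 and 0.344 CPM (34 counts in all), and without P1 WT replicate 2 the fold was 18.4. *Nkx2-1*, the ventral forebrain factor, rose 2.10-fold at P6 and 7.23-fold at P8, the first of these calls being lost without P6 WT replicate 1 or either P6 cKO library (adjusted p = 0.0627 to 0.111 in edgeR). *Snai1* rose 4.70-fold at P1 and fell 4.63-fold at P6, and *Foxl1* fell 8.59-fold at P6, a call lost without P6 cKO replicate 1 (adjusted p = 0.0597), with 13.03-fold without P6 cKO replicate 2. The calls among these targets lay on both sides, in near equal numbers at P6 and mostly higher in cKO at P1 and P8. Over all genes tested, 11.2% were called higher and 8.37% lower at P8. *Gli1*, *Ptch1* and *Hhip* were all below WT at P6 and P8, but by the same rule only *Gli1* was called at P6, and all 3 at P8.

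Markers of other cells also differed between the labels. The counts of calls below stand beside 4.9%, 13.5% and 19.6% of all genes tested at P1, P6 and P8. Of 14 fibroblast markers measured, 11 rose and 0 fell at P1, 0 rose and 11 fell at P6, and 0 rose and 12 fell at P8. Their summed level was 514 to 527 CPM in P1 WT and 2564 to 2603 in P1 cKO, 7297 to 7373 in P6 WT and 2610 to 2783 in P6 cKO, and 26936 to 27075 in P8 WT and 8303 to 8560 in P8 cKO. Like *Gli1*, *Gli2* and *Gas1*, the sum was lower in cKO at P6 and P8, but at P1 it was higher in cKO, where none of these 3 was called. Among the list, *Dcn* was 174 and 181 CPM in P6 WT against 1.93 and 3.28 CPM in P6 cKO, *Foxd1* was 92.3 and 97.0 against 0.825 and 1.34, and *Lum* had no count in P6 cKO. Of 8 endothelial markers, 4 were called higher and 0 lower at P1, 2 higher and 5 lower at P6, and 2 higher and 3 lower at P8. Their summed level was 79.5 to 80.0 CPM in P1 WT and 97.6 to 102 in P1 cKO. It was 187 to 189 CPM in P6 WT and 156 to 179 in P6 cKO, and 190 to 204 in P8 WT and 74.6 to 76.2 in P8 cKO. *Cdh5*, at 55.7 and 57.0 CPM in P6 WT and 0.607 and 1.11 CPM in P6 cKO, had a far wider gap than the sum. The part of these cells in the results for the members was not tested.

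**Figure D5:**
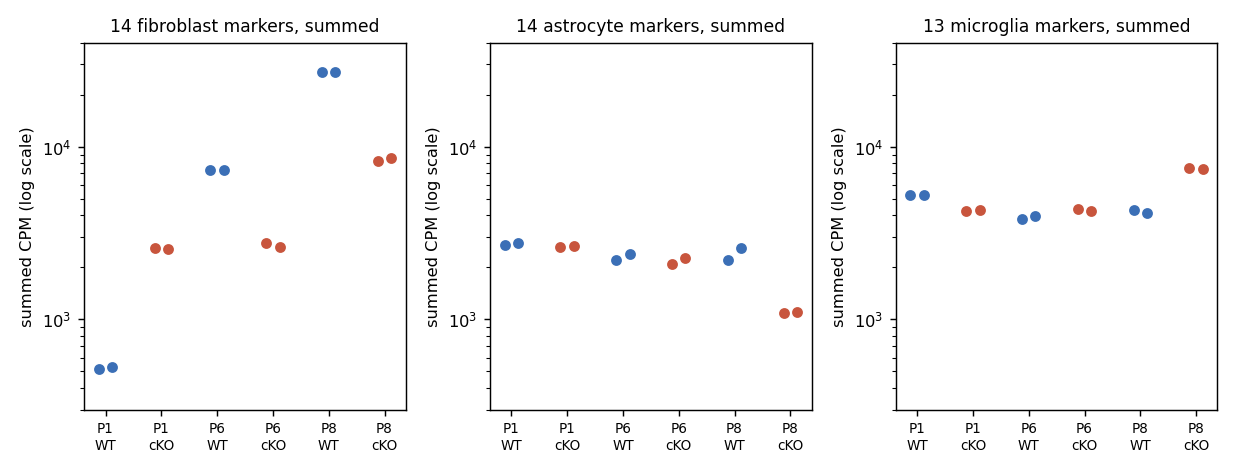
Summed CPM of 14 fibroblast, 14 astrocyte and 13 microglia markers in each library (blue for WT, red for cKO, log axis). The fibroblast sum runs from 514 CPM in P1 WT to 27075 CPM in P8 WT, and the P8 cKO libraries have the lowest astrocyte sums and the highest microglia sums.

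Astrocyte, microglia and oligodendrocyte lineage markers had fewer calls at P6 than at P8, and mural markers had more. Among all genes tested, 4.9% were called at P1, 13.5% at P6 and 19.6% at P8. Of 14 astrocyte markers, 1 was called higher and 0 lower at P1, 0 higher and 1 lower at P6, and 0 higher and 7 lower at P8, where their sum was 2200 to 2578 CPM in WT and 1089 to 1097 CPM in cKO. Of 13 microglia markers, 0 were called higher and 2 lower at P1, 1 higher and 1 lower at P6, and 9 higher and 1 lower at P8, with sums of 4127 to 4290 CPM in P8 WT and 7471 to 7546 CPM in P8 cKO. Of 12 oligodendrocyte lineage markers, 3 were higher and 0 lower at P1, 0 higher and 2 lower at P6, and 1 higher and 6 lower at P8. For 8 mural markers the calls were 2 higher at P1, 1 higher and 4 lower at P6, and 1 higher and 2 lower at P8, and for 8 ependymal and choroid plexus markers 2 higher at P1, and 3 higher and 1 lower at both later time points. Of 14 neuron markers 3 were measured, with 1, 2 and 2 of them higher. Of 7 ventral forebrain genes, 2 were higher at P1, 3 higher and 1 lower (*Lhx6*) at P6, and 4 higher at P8. Of 5 dorsal forebrain genes edgeR called 0 at P1 (1 at an unadjusted p below 0.05, and 0 in DESeq2), 2 higher at P6 and 4 higher at P8. *Foxa2* and *Nkx2-1* stand in both the target list and the ventral forebrain list, *Pdgfra* in the fibroblast and oligodendrocyte lists, and *Cspg4* in the oligodendrocyte and mural lists. Among markers in the count table, the only one other than *Lum* without a count in some group was *Tmem212*, an ependymal gene, in P1 WT and P6 WT. Other listed genes were not in that table. It held 8 of 11 endothelial, 8 of 11 mural and 8 of 11 ependymal and choroid plexus markers. Of the ventral forebrain genes it held 7 of 13, and of the dorsal ones 5 of 8.

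Likeness was measured as the root mean square difference of log2 CPM, each centred on its mean over the 12 libraries. The genes most like *Shh* were *Scel* (0.45), *Ntn1* (0.46) and *Oit3* (0.48 on the log2 scale). *Ntn1*, which encodes the axon guidance ligand netrin-1, was 565 and 569 CPM in P6 cKO against 173 and 180 CPM in P6 WT, and 182 and 185 in P8 cKO against 36.6 and 40.0 in P8 WT. Its P1 libraries, at 190 and 192 CPM in WT and 184 and 199 CPM in cKO, overlapped, unlike those of *Shh*. The genes most like *Gli1* were *Cdh1* (0.50), *Ptges* (0.63) and *Slc7a11* (0.65). *Cdh1*, which encodes the adhesion protein E-cadherin, was 4.18 and 4.67 CPM in P6 WT and 0.122 and 0.124 CPM in P6 cKO, and *Slc7a11*, the cystine transporter, was 251 and 278 CPM against 10.7 and 12.2 CPM.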

How the data were processed

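Primary astrocytes of 6 groups (WT and *Rack7*-cKO at P1, P6 and P8, 2 libraries each) were profiled by RNA-seq of captured mRNA. The deposited values are raw counts, read numbers for each of 18903 genes, which the authors made from reads mapped to GRCm38/mm10 with Hisat2. For the counting, the program, annotation and strand setting were not given in the sources used here. The study names ballgown and DESeq2 for its own tests. Groups came from the sample titles.

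edgeR 4.0.16 (R 4.3.3) was fitted to the counts: TMM factors (0.943 to 1.07), filterByExpr, 1 mean for each of 6 groups over all 12 libraries, and the quasi-likelihood test with Benjamini-Hochberg adjustment over 17938 genes. CPM used the normalized library size. Totals of 54413504 to 89183250 counts set the precision, and replicates differed by more than counting noise (chi-square per degree of freedom 30.5 to 47.1). Contrasts were cKO against WT at each time point, the steps in time within a label, and the changes of the cKO-WT difference, called by adjusted p alone. The alternatives were DESeq2 size factors, no filter, DESeq2 1.42.0, the compared groups alone, the replicate number as a block, each library left out, the unadjusted p and a fold change of at least 2. The fit was tested on simulated data.

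Positions and exon lengths came from GENCODE vM21, which held 18873 of the 18903 identifiers, and windows at gene starts from RefSeq (GRCm38.p6). The 9 genes and the lists were chosen with earlier results of these data known. All 9 genes are named. Of each list, the genes given with values were taken from the called genes with the largest fold change at any time point. These were at most 4 for each list, with a mean of at least 1 CPM. Not all of them are named, and most marker lists are given by their counts of calls alone. For *Shh* and *Gli1* the 3 genes closest by the root mean square difference (prior count 2) are named.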

Additional observations from a re-analysis of the deposited data

Results flagged for a closer look

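The following differences between WT and cKO changed between time points by edgeR's interaction test at an adjusted p below 0.05, which is why they are listed. Each value is the change of the log2 fold change of cKO against WT. From P1 to P6 it was 2.61 for *Shh*, -5.47 for *Gli1*, -2.52 for *Gli2*, -1.27 for *Gas1* and -0.52 for *Gli3*. From P6 to P8 it was 1.73 for *Shh*, 3.38 for *Gli1*, -1.55 for *Boc*, -0.72 for *Ptch1* and -0.50 for *Smo*. From P1 to P8 it was 4.33 for *Shh*, -2.12 for *Gli2*, -2.10 for *Gli1*, -1.497 for *Boc*, -1.18 for *Gas1*, -1.02 for *Ptch1* and -0.71 for *Smo*.

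*Gli1* is the one gene of the 9 whose difference grew in one step and shrank in the next with both changes past the test, and *Boc* the one whose cKO libraries were on the higher side at P6 and on the lower side at P8.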

How the results depend on the processing

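Over 90 pairs of a gene and a comparison and 17 alternatives for each, 1492 of 1530 values kept their direction and their call, 22 lost the call, 10 gained it and 6 turned. In 76 of the 90 pairs nothing changed under any alternative, and 7 of the 49 called pairs lost the call in at least 1. The number of members called moved by more than 1.5 times only at a fold change of at least 2, from 3 to 1 for P6 against P1 in WT and from 6 to 3 for P8 against P6 in WT. With the replicate number as a block it was 1, 4 and 8 at P1, P6 and P8, the same as without it, and 5 in place of 6 for P8 against P6 in WT, where *Gli1* went to adjusted p = 0.0510. Same-numbered libraries of 2 groups deviated with correlations of -0.05 to 0.104 over 15146 genes, so a pairing by number did not show over genes as a whole. Whether same-numbered libraries share an origin that touches few genes was not tested. *Smo* for P8 against P6 in cKO, at 1.497-fold, was called with DESeq2 size factors, in DESeq2, with the 2 groups alone, without P6 cKO replicate 1 and without P8 cKO replicate 1.

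*Hhip* at P6 was called in DESeq2 (adjusted p = 0.0395) and without either P1 WT library (0.0441 in edgeR). Values that turned were all uncalled. *Hhip* at P1 was -0.53 to 1.27 over the libraries left out, its change of difference from P6 to P8 -0.95 to 0.71, and *Ptch1* for P6 against P1 in WT -0.022 to 0.075; the cause was not tested. With 2 libraries a group, a library left out leaves a lone one assumed to vary like the rest. *Hhip* replicates lie far apart, and *Gli1* in P6 cKO rests on 42 counts, so its fold there is the least precise of those called for the GLI genes.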
